A study of Mus musculus with 24 samples.

Results

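Transcripts of 9 transcription factors that set up or tune the macrophage lineage were followed across a set of mouse macrophage libraries: Spi1, Cebpa, Cebpb, Cebpd, Maf, Mef2a, Mef2c, Tfec and Sox4. They were chosen by gene symbol with earlier results of these data known, so their counts beside all genes are descriptive. All 9 were found among the 11590 genes of the deposited count table. The macrophages had been grown from bone marrow of male C57BL/6 mice with the growth factor M-CSF (macrophage colony-stimulating factor) and were treated on day 7. The mice were wild-type (WT) or deficient in GPR35 (KO), a G protein-coupled receptor, so the design asks whether transcripts answer lysophosphatidic acid through this receptor. Cells of each genotype were left untreated (Cont), given 10 µM lysophosphatidic acid (LPA), a signalling lipid, or given 10 ng/mL lipopolysaccharide (LPS), the bacterial ligand of Toll-like receptor 4, for 4 h. The 6 groups are called WT Cont, WT LPA, WT LPS, KO Cont, KO LPA and KO LPS. Each has 4 libraries, so n = 4 for every group value below. The labels give neither the deleted allele nor the age of the mice, and they do not say whether replicates came from separate animals. If they did not, p-values measure only the spread between these libraries.

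PU.1, the product of Spi1, is an ETS-family factor that opens myeloid enhancers and is needed for macrophages to form. It works with members of the C/EBP family of leucine-zipper proteins: C/EBPα (Cebpa) directs progenitors into the myeloid lineage, and C/EBPβ (Cebpb) and C/EBPδ (Cebpd) are induced by inflammatory signals and help to switch on cytokine genes. c-MAF (Maf) helps to hold mature macrophages in a non-dividing state and drives Il10. The MADS-box factors MEF2A and MEF2C act at muscle, neuronal and myeloid enhancers, where class IIa histone deacetylases restrain them. TFEC is the MiT/TFE-family member whose expression is largely restricted to macrophages. SOX4 is an HMG-box factor best known from progenitor and dividing cells.

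The libraries held 31985119 to 46697165 counts in WT and 15167683 to 21461866 in KO, and the labels name 2 sequencing lanes for each WT library and 1 for each KO library. Lane number and depth therefore cannot be told apart from genotype. Levels are given as CPM, the count relative to the library size after TMM scaling, which balances the bulk of genes between libraries. All 8 defining macrophage markers were in the table, and their summed level was 30920 to 38277 CPM without LPS and 43550 to 47250 CPM with it. The other marker lists reached at most 557 CPM in any library (neutrophils, 173 to 557 from 10 of 11 markers, and osteoclasts, 314 to 529 from 8 of 11), and 5 of 11 progenitor markers were measured, with sums of 2.83 to 12.9 CPM, Kit, Cd34, Flt3, Gata2, Hoxa9 and Ctsg not being among the genes of the table. The level of Gpr35 was 2.60 ± 0.214 CPM (mean ± SD) in WT Cont and 0.133 ± 0.0710 CPM in KO Cont, without overlap. With LPS its level in WT was low as well, at 0.417 ± 0.150 CPM (8 to 17 counts). It was counted in none of the 4 KO LPS libraries. Among the WT LPA libraries, replicate 3 stood apart for these genes: of the 4 libraries it lay nearest the untreated mean for Spi1, Cebpa, Cebpb, Cebpd, Mef2c, Tfec and Sox4, and the WT LPA changes that passed the test are given with and without it. Leaving it out enlarges those changes by the way it was chosen. In bulk RNA, fewer cells of one kind and less RNA per cell cannot be told apart.

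In untreated WT cells the 9 genes spanned a wide range of levels per transcript length. Ranked by RPKM (CPM per kilobase, comparable between genes), Spi1 was highest at 216 ± 13.2 (SD), followed by Maf at 82.7 ± 3.42 and Cebpa at 48.8 ± 3.84. Tfec at 30.0 ± 1.85, Mef2a at 27.8 ± 1.34 and Mef2c at 21.8 ± 2.45 came next, and the library ranges of Tfec and Mef2a overlapped. Cebpb stood at 18.1 ± 0.450 RPKM, Cebpd at 4.17 ± 0.208 and Sox4 at 1.84 ± 0.383. After LPS the order in WT cells was Spi1 (621 ± 21.5 RPKM), Maf (158 ± 12.8), Tfec (142 ± 10.3), Cebpd (47.5 ± 5.28), Cebpb (43.8 ± 2.94), Mef2a (38.0 ± 3.52), Mef2c (7.98 ± 0.692), Cebpa (3.95 ± 0.410) and Sox4 (0.0178 ± 0.0206). Cebpa thus went from the third place to the eighth, and Cebpd from the eighth to the fourth.

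**Figure D1:**
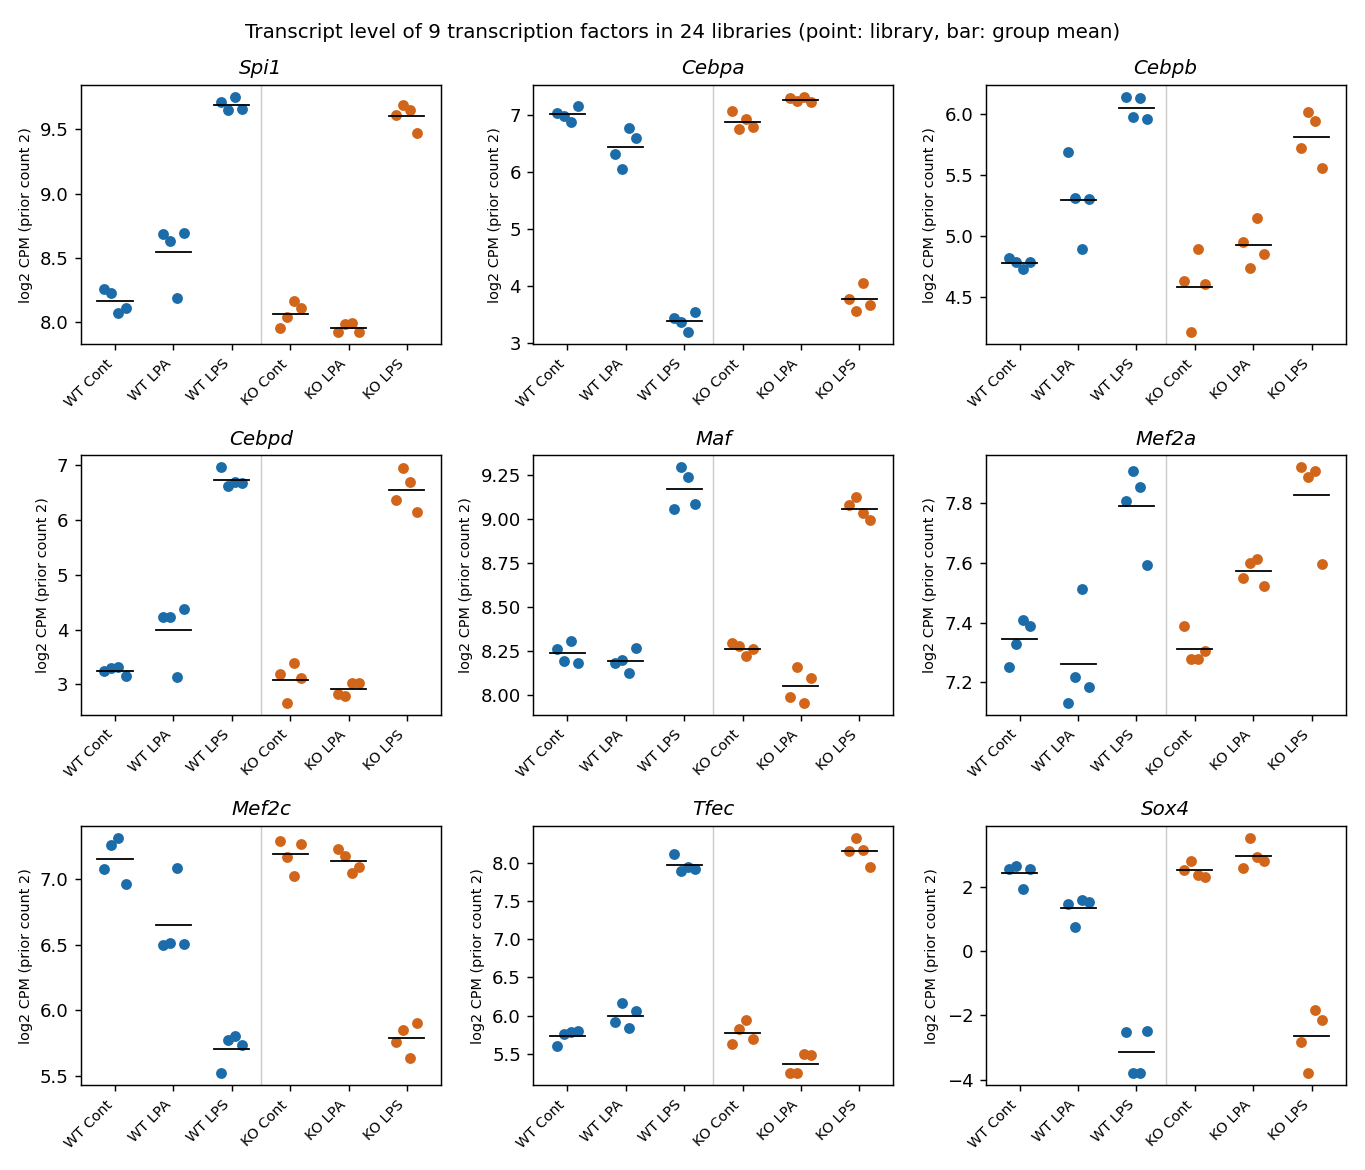
Each panel is 1 gene, each point 1 library, the vertical axis log2 CPM (TMM scaled, prior count 2) and the horizontal axis the 6 groups, with WT in blue, KO in orange and a bar at the group mean. Both LPS groups sit apart from the other 4 groups for Spi1, Cebpa, Cebpd, Maf, Mef2c, Tfec and Sox4. Within WT LPA, 1 library (replicate 3) lies near the untreated cells for Spi1 (292 CPM), Cebpd (8.65 CPM) and Mef2c (136 CPM).

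LPA changed 7 of the 9 transcripts in WT macrophages after 4 h, against 44.6% of all genes called in that comparison (23.5% upward and 21.1% downward). Spi1, Cebpb, Cebpd and Tfec rose, and Cebpa, Mef2c and Sox4 fell, while Maf and Mef2a did not pass the test (edgeR quasi-likelihood test, adjusted p below 0.05 over all 11590 genes). The changes were moderate, with a median absolute log2 change of 0.49 over the 9 genes and 0.19 over all genes tested. Only Sox4 changed at least 2-fold. In KO macrophages LPA changed 2 of the 9, Maf and Tfec, both downward, against 2.62% of all genes (1.56% upward and 1.06% downward). These 2 calls depend on the fit: with KO Cont and KO LPA fitted alone, the 2 members called were Cebpa (adjusted p = 0.0232) and Mef2a (adjusted p = 0.0148), both upward, and Maf (adjusted p = 0.07) and Tfec (adjusted p = 0.051) were not. Same-numbered KO libraries deviated together. With the replicate number as a block, 4 of the 9 were called, Maf and Tfec downward and Cebpa and Mef2a upward. That fit called 554 genes overall in place of 304. In the model of all 6 groups the median absolute log2 change was 0.26 over the 9 genes and 0.076 over all genes.

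The difference between genotypes was tested directly as the LPA change in KO minus that in WT. It passed the test for 7 of the 9 genes, against 28.5% of all genes (12.7% upward and 15.8% downward): Spi1, Cebpd and Tfec had the lower change in KO, and Cebpa, Mef2a, Mef2c and Sox4 the higher one. For 6 of the 9 genes the estimated LPA change had opposite signs in the 2 genotypes, but only Tfec passed the test in both. With the replicate number as a block Cebpa passed in both as well (adjusted p = 0.000221 in WT and 0.0384 in KO). The share of all genes with opposite signs was not counted, so the sign count describes these estimates only. With LPA present, the level itself differed between KO and WT for 9 of 9 genes, against 50.3% of all genes, 4 higher and 5 lower in KO (24.4% and 25.9% of all genes). That count was 7 with library totals alone, with the compared groups alone and with the replicate number as a block, each time without Cebpb and Maf. Here the block matched WT and KO libraries of equal number, which did not deviate together. In untreated cells none of the 9 differed, against 0.00863% of all genes, which is 1 gene, Gpr35. All 9 adjusted p-values there were 1, DESeq2 called none of the 9 either, and the widest 95% interval of a KO-minus-WT log2 difference ran from -0.41 to 0.54, for Sox4. These comparisons share libraries with each other, so their values are given side by side and are not independent of one another. Between the genotypes in untreated cells, 314 of 11590 genes had an unadjusted p below 0.05, none of them a member. When no gene differs, that threshold on average lets through more genes than this.

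Some markers of other cell types moved with LPA as well. Of 11 mast cell, erythroid and megakaryocyte markers 3 were in the table, Hdc, Pf4 and Ppbp. Their summed level was 76.6 to 96.2 CPM in WT Cont, 120 to 192 in WT LPA, 84.96 to 103 in KO Cont and 92.3 to 111 in KO LPA, while Gata1, Klf1, Cpa3 and Itga2b were not among the genes measured. The 2 of 9 dendritic cell markers measured, Batf3 and Kmo, summed to 5.21 to 6.73 CPM in WT Cont and 2.32 to 3.76 in WT LPA. The 2 of 12 lymphocyte markers measured, Cd4 and Cd79b, summed to 81.7 to 98.4 CPM in WT Cont and 60.7 to 72.9 in WT LPA, and the 6 of 8 stromal markers measured to 6.13 to 12.96 CPM in KO Cont and 14.3 to 28.2 in KO LPA. The other sums overlapped between LPA and untreated cells of the same genotype. With LPS in WT the lymphocyte sum was 30.2 to 39.1 CPM, the dendritic cell sum 2.78 to 3.59, the progenitor sum 3.51 to 4.49 (4.997 to 8.72 untreated) and the mast cell, erythroid and megakaryocyte sum 208 to 234. The part of such cells in the changes of the 9 genes was not tested.

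LPS changed all 9 transcripts in both genotypes, against 84.2% of all genes in WT (40.6% upward and 43.6% downward) and 82.3% in KO (39.3% and 43.0%). The sign was the same in both genotypes for 9 of 9, and the share of all genes with the same sign was not counted. Spi1, Cebpb, Cebpd, Maf, Mef2a and Tfec rose, and Cebpa, Mef2c and Sox4 fell. The median absolute log2 change was 1.53 in WT and 1.54 in KO, compared with 0.68 and 0.66 over all genes. No member differed between KO and WT in the presence of LPS (2.85% of all genes did, 0.69% upward and 2.16% downward), with Cebpa and Tfec at an unadjusted p below 0.05 and none called by DESeq2. No member differed in its LPS change either (0% of all genes, with 698 at an unadjusted p below 0.05, Cebpa among them, and 17 by DESeq2, no member among them).

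**Figure D2:**
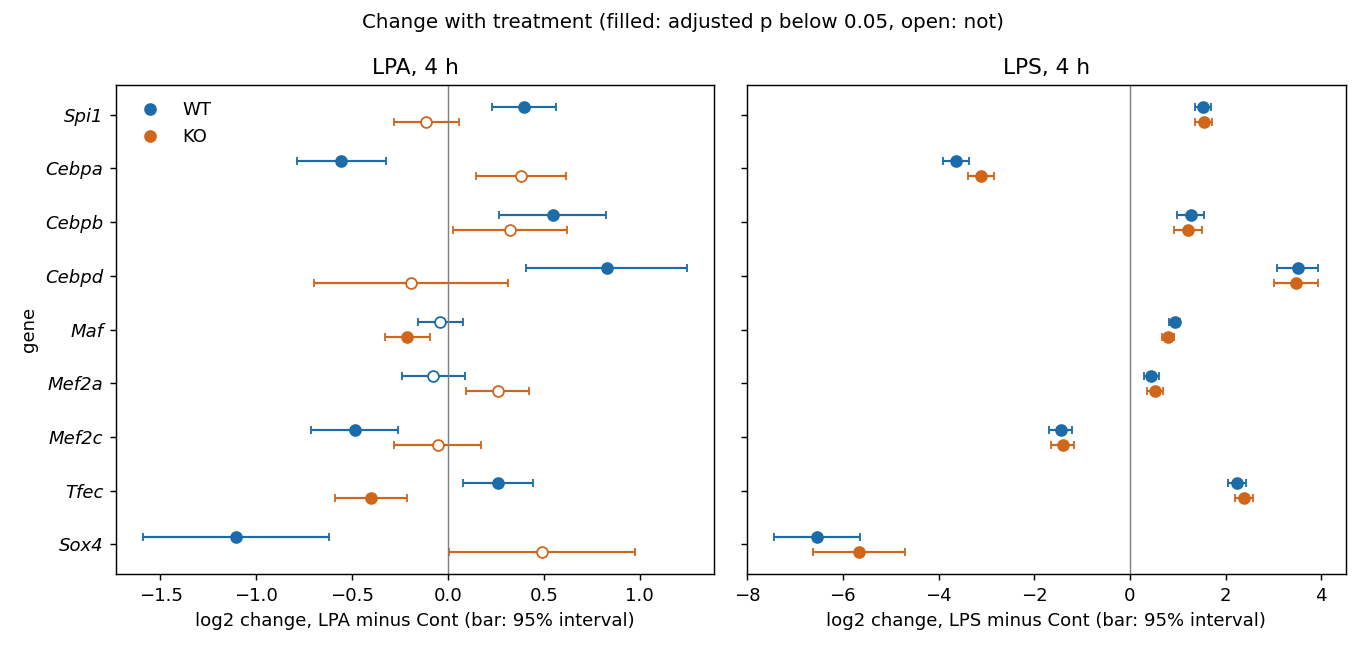
Each row is 1 gene and the horizontal axis is the log2 change against untreated cells of the same genotype, with LPA on the left and LPS on the right on different scales. Points are WT (blue) and KO (orange), bars are 95% intervals, and filled points passed the test. With LPA the estimates of the 2 genotypes lie on opposite sides of 0 for 6 of the 9 genes. Among them are Cebpa (-0.56 in WT, 0.38 in KO) and Tfec (0.26 and -0.40), of which only Tfec is filled in both. With LPS they lie on the same side for all 9 genes.

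The scaling bears on the LPS values. LPS libraries had TMM factors of 0.739 to 0.840, and all others had factors above 1. Scaling by library totals alone moved the median log2 change of all genes by -0.56 in WT and -0.50 in KO, which takes about the same amount off every gene. Spi1 then rose by a log2 of 0.97 in WT in place of 1.53, Cebpb by 0.72 in place of 1.27, and Maf by 0.38 in place of 0.94. In KO, Cebpb rose by 0.71 in place of 1.22 and Maf by 0.30 in place of 0.79. The Mef2a change no longer passed the test in either genotype under that scaling (-0.11, adjusted p = 0.217, in WT, and 0.02, adjusted p = 0.805, in KO). Changes with LPS are therefore relative to the bulk of genes.

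Spi1, which encodes PU.1 (chromosome 2, 91082374 to 91115759, GRCm38.p6), was at 306, 299, 270 and 276 CPM in the WT Cont libraries and at 411, 397, 292 and 413 CPM with LPA. Of the LPA libraries 3 lay above every untreated one, and replicate 3 lay within their range. The log2 change was 0.40 ± 0.08 (SE, adjusted p = 0.000567), a 1.32-fold rise, and 0.50 without replicate 3 of WT LPA. In KO the libraries read 248, 263, 286 and 277 CPM untreated and 242, 253, 254 and 243 CPM with LPA. Those ranges overlapped, and the change of -0.11 ± 0.08 did not pass the test (adjusted p = 0.648). The LPA change was lower in KO by a log2 of 0.51 ± 0.12 (adjusted p = 0.00298), and KO LPA libraries all lay below all WT LPA ones (-0.61 ± 0.08, adjusted p = 4.1e-06). LPS took Spi1 to 803 to 863 CPM in WT and 710 to 826 CPM in KO, 2.88-fold and 2.91-fold above untreated cells, with no overlap. Its order across groups was WT LPS and KO LPS, overlapping each other, then WT LPA, WT Cont, KO Cont and KO LPA, each overlapping its neighbour.

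The 3 C/EBP genes moved apart from each other. Cebpa (chromosome 7, 35119293 to 35121928) was at 131, 126, 117 and 141 CPM in WT Cont and at 79.3, 66.6, 109 and 96.0 CPM in WT LPA. All 4 treated libraries were below all 4 untreated ones, and the log2 change was -0.56 ± 0.11 (adjusted p = 0.000532), and -0.68 without replicate 3. In KO Cont it was at 134, 107, 122 and 110 CPM, and in KO LPA at 156, 150, 159 and 149 CPM, with all treated libraries above all untreated ones. That change, 0.38 ± 0.11, did not pass the test over all genes (adjusted p = 0.0842), but it passed with the replicate number as a block (0.38, adjusted p = 0.0384). The difference between the genotypes in the LPA change was 0.93 ± 0.16 on the log2 scale (adjusted p = 0.000364), and with LPA present Cebpa was 1.75-fold higher in KO (0.81 ± 0.11, adjusted p = 7.75e-06). LPS lowered it to 9.05 to 11.6 CPM in WT and 11.8 to 16.6 CPM in KO. These are 12.3-fold and 8.63-fold below untreated cells (-3.62 ± 0.13 and -3.11 ± 0.13, adjusted p = 1.25e-16 and 3.01e-15). The KO LPS libraries all lay above the WT LPS ones, yet that difference of 0.39 ± 0.14 did not pass the test (adjusted p = 0.142).

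Cebpb (chromosome 2, 167688915 to 167690432) read 28.2, 27.6, 26.5 and 27.5 CPM in WT Cont, the smallest relative spread of the 3 C/EBP genes there, and 51.5, 39.6, 29.7 and 39.4 CPM in WT LPA. Every LPA library was above every untreated one, replicate 3 by the least, and the log2 change was 0.55 ± 0.13 (adjusted p = 0.00272), and 0.66 without replicate 3. In KO it was at 18.4 to 29.6 CPM untreated and 26.6 to 35.4 CPM with LPA, with overlap (0.33 ± 0.14, adjusted p = 0.331). The difference between those 2 changes was -0.22 with a 95% interval of -0.63 to 0.19 (adjusted p = 0.422), so a genotype dependence was neither shown nor bounded closely. Its KO-minus-WT level with LPA passed the test (-0.40 ± 0.14, adjusted p = 0.0214) with overlapping ranges. That call was lost without WT LPA replicate 1 (-0.25, adjusted p = 0.128), without KO LPA replicate 2 or 4, and in the 3 settings named above. LPS raised Cebpb to 62.3 to 70.6 CPM in WT and 47.1 to 64.6 CPM in KO, 2.42-fold and 2.32-fold.

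Cebpd (chromosome 16, 15887286 to 15889545) was low in untreated cells, at 9.36, 9.75, 9.82 and 8.79 CPM in WT. With LPA it was at 18.7, 18.8, 8.65 and 20.7 CPM, so 3 libraries were about double the untreated level and replicate 3 was below all of it. The log2 change was 0.83 ± 0.20 (adjusted p = 0.00259) and 1.04 without replicate 3. The KO libraries, at 6.24 to 10.4 CPM untreated and 6.79 to 8.09 CPM with LPA, overlapped (-0.19 ± 0.24, adjusted p = 0.839). The genotypes differed in the LPA change by -1.02 ± 0.31 (adjusted p = 0.0208). With LPS it reached 98.9 to 125 CPM in WT and 71.3 to 123 CPM in KO, the steepest rise of the 9 genes at 11.4-fold and 11.1-fold. A gene on the opposite strand overlaps Cebpd: Spidr, whose log2 change with LPS was 1.08 in WT. The strand setting of the counting is not given in the sources used here, so reads shared between the 2 genes were not separated here. The same holds for Cebpb with Tmem189 (0.05 with LPS in WT) and for Mef2a with Lysmd4 (-0.36). Cebpa, Maf and Sox4 also overlap opposite-strand genes (Gm45091, Gm15655 and Gm26735), which were not among the genes of the table.

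The balance of the 3 C/EBP transcripts was read from their sum per transcript length. In WT Cont, Cebpa made up 68.6% ± 1.65 (SD) of their summed RPKM, Cebpb 25.5% ± 1.06 and Cebpd 5.89% ± 0.604. With LPA the Cebpa share was 49.6% ± 10.3 in WT and the Cebpb share 39.3% ± 7.51, and Cebpd held 5.92% to 13.9%. The Cebpa share of the WT LPA libraries was 41.6%, 42.3%, 63.8% and 50.9%, each below every untreated library, with replicate 3 the closest to them. In KO the Cebpa share was 69.5% ± 3.41 untreated and 71.4% ± 1.76 with LPA, with overlap. With LPS the Cebpa share was 4.17% ± 0.558 in WT and 6.26% ± 1.25 in KO, and Cebpb and Cebpd held similar parts (46.0% and 49.8% in WT). The summed level itself was 71.1 ± 3.93 RPKM in WT Cont, 67.0 ± 6.00 in WT LPA and 95.3 ± 7.60 in WT LPS. In KO it was 55.5 to 71.0 RPKM untreated and 77.5 to 87.1 RPKM with LPA, without overlap, so there the total moved and the Cebpa share hardly did. With LPS it was 67.4 to 101 RPKM in KO. These shares restate the levels above and carry no test of their own.

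**Figure D3:**
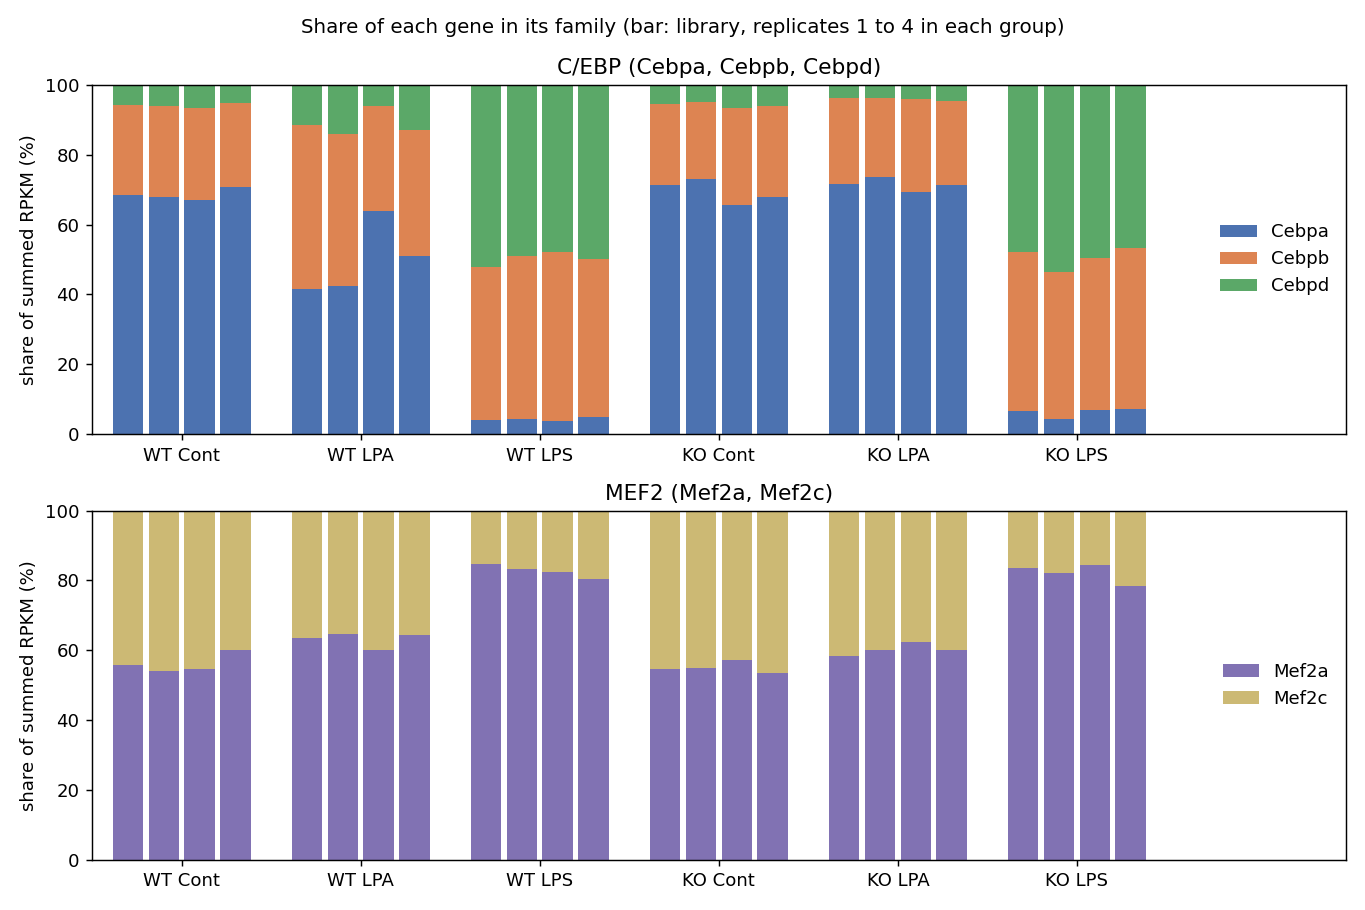
Each bar is 1 library, grouped by condition, and its coloured segments are the percentage of the family's summed RPKM held by each gene, with the 3 C/EBP genes above and the 2 MEF2 genes below. Cebpa is the largest segment in all 8 untreated bars (65.6% to 73.1%) and the smallest in all 8 LPS bars. Mef2c shrinks from 43.8% to 17.4% of the MEF2 sum between WT Cont and WT LPS.

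The promoters of Cebpa and Cebpb, a C/EBP pair that LPA moved in opposite directions in WT, are shown. Cebpd, which also rose with LPA in WT, had no window in the promoter set used. Any link between these sequences and the LPA changes was not tested. Each is the 250 bases before the RefSeq start site in GRCm38.p6, plus strand, at chr7:35119043-35119292 for Cebpa and chr2:167688665-167688914 for Cebpb, with motif matches in capitals.
Cebpa: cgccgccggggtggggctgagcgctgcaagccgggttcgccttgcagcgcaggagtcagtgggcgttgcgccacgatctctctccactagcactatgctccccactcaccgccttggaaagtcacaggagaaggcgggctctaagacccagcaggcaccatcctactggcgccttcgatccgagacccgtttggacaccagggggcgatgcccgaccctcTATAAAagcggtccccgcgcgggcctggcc
Cebpb: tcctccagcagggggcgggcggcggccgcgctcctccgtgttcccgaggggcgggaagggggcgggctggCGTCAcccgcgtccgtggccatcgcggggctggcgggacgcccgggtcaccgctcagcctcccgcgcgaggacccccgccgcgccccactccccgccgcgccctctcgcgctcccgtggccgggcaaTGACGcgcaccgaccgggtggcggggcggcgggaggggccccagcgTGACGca
The Cebpa window holds 1 TATA box (TATAAA, either strand), 30 to 25 bases before the start. The Cebpb window holds 3 matches to the cAMP-response half-site (TGACG, either strand), at 180, 53 and 7 bases before the start, and is 81.6% G or C against 66.4% for Cebpa. Of 32851 mouse promoter windows of this length, 12.4% hold TATAAA and 17.8% hold TGACG. Among the 11693 windows of genes in the count table the shares are 6.32% and 27.1%. Searches of both strands for the C/EBP core TTNNGCAA (9.56% of windows), the PU.1 core GAGGAA (23.3%), the AP-1 site TGANTCA (6.75%), the STAT site TTCNNNGAA (7.02%), the E-box CACGTG (6.02%), and the MEF2 (2.92%) and NF-kB (7.25%) consensus sites found no match in these 2 windows. TGACG and TGANTCA can overlap in part. A match describes letters only, not binding.

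Maf and Mef2a were the 2 members whose LPA change did not pass the test in WT. Maf (chromosome 8, 115703253 to 115706894) was at 290 to 316 CPM in WT Cont and 279 to 308 CPM in WT LPA, ranges that overlapped (-0.04 ± 0.06, adjusted p = 0.575). In KO it was at 313, 310, 298 and 306 CPM untreated and 253, 286, 248 and 273 CPM with LPA. All 4 treated libraries were below the untreated ones, and the log2 change was -0.21 ± 0.06 (adjusted p = 0.0471). This call was near the threshold and was lost in 7 of the 8 fits that left out 1 library. The genotypes were not shown to differ in the change itself (-0.17, 95% interval -0.34 to -0.003, adjusted p = 0.115). LPS raised Maf to 531 to 627 CPM in WT and 509 to 557 CPM in KO, 1.91-fold and 1.73-fold.

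Mef2a (chromosome 7, 67231163 to 67376456) read 152, 161, 170 and 167 CPM in WT Cont and 140, 149, 183 and 145 CPM in WT LPA, where replicate 3 was the highest and the other 3 were below every untreated library. The change was -0.08 ± 0.08 (adjusted p = 0.45), and -0.17 without replicate 3 (adjusted p = 0.0524). In KO it was at 155 to 167 CPM untreated and 184 to 196 CPM with LPA, without overlap. The KO change of 0.26 ± 0.08 did not pass the test (adjusted p = 0.0935) but passed with the replicate number as a block (0.26, adjusted p = 0.0316). With that block 4 of the 9 genes were called in KO with LPA, 2 in each direction, and 554 genes overall in place of 304. The genotype difference in the LPA change was 0.33 ± 0.11 (adjusted p = 0.0293), but 8 of the 16 fits without 1 library did not call it (largest adjusted p = 0.0698). With LPS the level was 193 to 240 CPM in WT and 193 to 242 CPM in KO, 1.36-fold and 1.43-fold above untreated cells.

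Mef2c (chromosome 13, 83504017 to 83667079) moved the other way from Mef2a with LPS. It was at 135, 153, 159 and 124 CPM in WT Cont and at 90.4, 91.3, 136 and 90.9 CPM in WT LPA. Again 3 libraries lay below all untreated ones and replicate 3 lay among them (-0.49 ± 0.11, adjusted p = 0.00121, and -0.66 without replicate 3). KO libraries were at 130 to 157 CPM untreated and 132 to 150 CPM with LPA, nearly the same range (-0.05 ± 0.11, adjusted p = 0.917). The difference between genotypes, 0.43 ± 0.15, passed the test (adjusted p = 0.0403), but 10 of the 16 fits without 1 library did not call it (largest adjusted p = 0.0928). Nor did the fit of the compared groups alone (adjusted p = 0.0632). LPS lowered Mef2c to 45.8 to 55.9 CPM in WT and 49.6 to 59.6 CPM in KO, 2.73-fold and 2.65-fold. As a share of the summed RPKM of the 2 MEF2 genes, Mef2c held 43.8% ± 2.79 in WT Cont, 36.8% ± 2.03 in WT LPA and 17.4% ± 1.80 in WT LPS. In KO the share was 42.8% to 46.4% untreated, 39.7% ± 1.70 with LPA and 17.9% ± 2.63 with LPS.

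Tfec (chromosome 6, 16830927 to 16898464) was the member whose LPA change passed the test in both genotypes in the model of all 6 groups, with opposite signs. WT Cont libraries were at 48.4, 54.0, 55.0 and 55.6 CPM and WT LPA ones at 60.1, 71.6, 57.1 and 66.6 CPM, all above. KO Cont libraries were at 49.2, 56.5, 61.7 and 51.6 CPM and KO LPA ones at 38.0, 37.7, 45.1 and 44.7 CPM, all below. The log2 change was 0.26 ± 0.09 in WT (adjusted p = 0.019, and 0.31 without WT LPA replicate 3) and -0.40 ± 0.09 in KO (adjusted p = 0.0141), and the difference was -0.66 ± 0.13 (adjusted p = 0.00083). The WT call was lost without WT Cont replicate 1 (0.22, adjusted p = 0.0646), without WT LPA replicate 2 (0.20, adjusted p = 0.0897), with counts thinned to the smallest library (0.23, adjusted p = 0.0516) and with library totals alone. The KO call was lost without KO Cont replicate 3 (-0.34, adjusted p = 0.0724) and without KO LPA replicate 1 (-0.36, adjusted p = 0.0624). LPS raised Tfec to 238 to 279 CPM in WT and 247 to 323 CPM in KO, 4.73-fold and 5.24-fold.

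Sox4 (chromosome 13, 28948919 to 28953699) was the lowest of the 9 and fell furthest. In WT Cont it had 269, 329, 152 and 233 counts (5.87, 6.26, 3.76 and 5.84 CPM), and in WT LPA 119, 65, 106 and 113 counts (2.71, 1.63, 2.95 and 2.81 CPM). Every WT LPA library was below every untreated one, and the log2 change was -1.11 ± 0.23 (adjusted p = 0.000727), a 2.15-fold fall, and -1.19 without replicate 3. In KO Cont it was at 5.75, 6.98, 5.16 and 4.92 CPM, and in KO LPA at 5.99, 11.5, 7.59 and 6.94 CPM, with overlap (0.49 ± 0.23, adjusted p = 0.388). The LPA change differed between genotypes by 1.60 ± 0.33 (adjusted p = 0.00159), the largest such difference of the 9, and Sox4 was 3.16-fold higher in KO than in WT with LPA. With LPS the 4 WT libraries held 3, 0, 0 and 3 counts and the 4 KO libraries 1, 0, 3 and 2. Pooled over each group and scaled by library totals, that is 149-fold below WT Cont (95% counting interval 68.3 to 407) and 73.9-fold below KO Cont (33.7 to 202). These exact intervals cover counting error only. The TMM-scaled fit gave 92.9-fold in WT and 50.7-fold in KO, values that depend on the prior count at such low counts. Whether Sox4 differed between genotypes with LPS was not detectable at this depth.

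**Figure D4:**
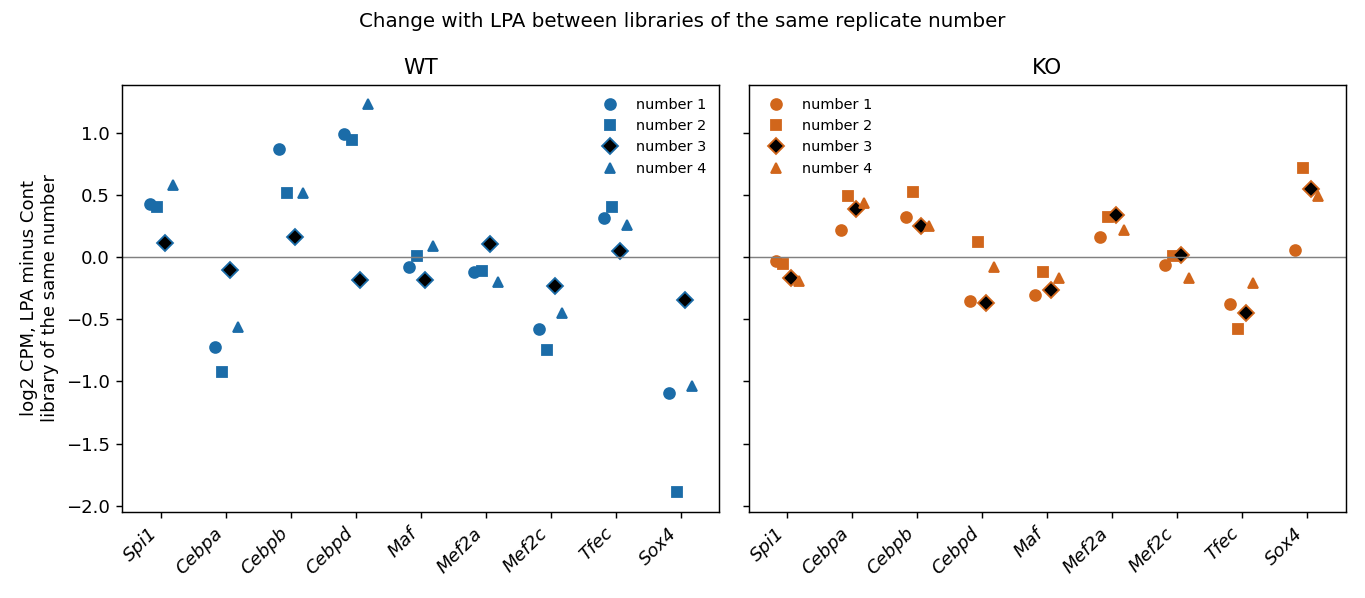
Points are the difference in log2 CPM between the LPA library and the untreated library of the same replicate number, by gene, for WT on the left and KO on the right, with replicate number 3 filled black. In WT, number 3 is closest to 0 for Spi1 (0.12), Cebpa (-0.10), Cebpb (0.16), Cebpd (-0.18), Mef2c (-0.23), Tfec (0.05) and Sox4 (-0.34). In KO, all 4 numbers lie above 0 for Cebpa, Cebpb, Mef2a and Sox4 and below 0 for Spi1, Maf and Tfec.

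The start-site windows of Sox4 and Tfec, the steepest fall with LPS and the member called in both genotypes with LPA, are shown as the 250 bases before the start site used, read on the minus strand, at chr13:28953700-28953949 and chr6:16898442-16898691. For Tfec that start, 16898441, lies inside the gene span given above, so the window overlaps the span in part.
Sox4: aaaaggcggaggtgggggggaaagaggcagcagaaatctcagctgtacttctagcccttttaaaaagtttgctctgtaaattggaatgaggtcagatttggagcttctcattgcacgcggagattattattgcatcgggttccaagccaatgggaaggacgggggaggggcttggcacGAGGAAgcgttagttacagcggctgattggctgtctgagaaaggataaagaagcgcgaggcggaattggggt
Tfec: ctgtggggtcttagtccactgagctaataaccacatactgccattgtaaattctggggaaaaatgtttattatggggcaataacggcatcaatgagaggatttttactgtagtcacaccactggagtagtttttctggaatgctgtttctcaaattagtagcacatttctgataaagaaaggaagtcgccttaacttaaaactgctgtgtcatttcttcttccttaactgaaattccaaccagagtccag
Capitals in Sox4 mark 1 PU.1 core (GAGGAA), 72 to 67 bases before the start. The Tfec window, at 39.2% G or C, held none of the motifs searched. Mef2a had 2 GAGGAA matches in its window, and 2 of the 3 Mef2c windows had 1 each. The Mef2a start used (67372858) and the Mef2c starts also lie inside the gene spans given above. Spi1, Cebpd and Maf are named only.

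Set against each other directly, LPS exceeded LPA for the same 6 genes in both genotypes and was below it for Cebpa, Mef2c and Sox4: 9 of 9 passed the test in WT (78.9% of all genes, 37.8% upward and 41.1% downward) and in KO (82.5% of all genes, 39.6% and 42.8%). Cebpd was 6.40-fold higher with LPS than with LPA in WT and 12.7-fold higher in KO. For Mef2a the KO difference of 0.26 ± 0.08 (adjusted p = 0.0044) turned to -0.26 (adjusted p = 0.00645) with library totals alone, so its direction rests on the scaling. For Cebpb the WT difference of 0.73 ± 0.13 became 0.23 and lost its call in that setting (adjusted p = 0.0989), as did Mef2a in WT (0.02 in place of 0.53, adjusted p = 0.839). There the WT difference of Spi1 was 0.63 in place of 1.13, that of Maf 0.48 in place of 0.98 and that of Mef2c -1.47 in place of -0.96. In KO, Cebpb stood at 0.37 in place of 0.89 and Maf at 0.49 in place of 1.01.

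Relatives of the 9 genes were read from family lists. Beside these counts, 23.5% of all genes rose and 21.1% fell with LPA in WT, 1.56% and 1.06% did in KO, and 40.6% rose and 43.6% fell with LPS in WT. The C/EBP list had 8 measured genes besides Cebpa, Cebpb and Cebpd: with LPA in WT 1 rose and 3 fell (median log2 change -0.27, all genes -0.01), in KO none passed, and with LPS in WT 1 rose and 4 fell. Atf4, a stress-response partner of C/EBP proteins, rose with LPA in WT (0.59, adjusted p = 0.000549) and with LPS in both genotypes (1.18 in KO). In WT the PAR-zipper genes Dbp and Tef, outputs of the circadian clock, fell with LPA (-1.37 and -0.75) and with LPS (-4.01 and -2.75). Their LPA changes in KO did not pass the test (-0.21, adjusted p = 0.814, and 0.13, adjusted p = 0.792). Among 15 other ETS genes, 4 rose, a share near that of all genes, and 1 fell with LPA in WT (median 0.11) and 8 rose and 3 fell with LPS (median 0.45, all genes -0.04). In WT, Ets2 rose with both, by 1.21 and 3.54, and Fli1 fell with both, by 0.35 and 0.98. Neither passed the test with LPA in KO (adjusted p = 0.929 for Ets2 and 0.995 for Fli1). In KO with LPA, Elk3, a repressor of SRF targets, was the 1 ETS gene that rose (0.45, adjusted p = 0.00306).

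Of 9 other genes of the MAF, NRF2 and BACH families, 5 rose and none fell with LPA in WT (median 0.25), none passed in KO, and 5 rose and 3 fell with LPS in WT. The small MAF genes Maff, Mafg and Mafk rose with LPA in WT (1.15, 0.43 and 0.35) and with LPS (3.44, 0.73 and 1.45). Among 5 other MEF2 and class IIa deacetylase genes, 2 fell and none rose with LPA in WT (median -0.10), and 4 fell with LPS. Hdac5, which binds and restrains MEF2 factors, fell by 0.41 with LPA and 2.34 with LPS in WT. Mef2d fell with LPS (-1.05) and rose with LPA in KO (0.33, adjusted p = 0.00746). Hdac9 fell with LPA in both genotypes (-1.16 in WT and -1.06 in KO, adjusted p = 0.0104). Of the 3 other MiT/TFE genes, Mitf rose with LPA in WT (0.30, adjusted p = 0.00844) and with LPS (0.88), Tfe3 rose with LPS (0.41), and Tfeb, a regulator of lysosome genes, fell with LPS (-1.23). Sox4 was the 1 measured gene of its family list of 6.

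Among 26 other monocyte and macrophage lineage factors, 9 rose and 6 fell with LPA in WT (median 0.12, beside 23.5% and 21.1% of all genes), 1 rose in KO (1.56% of all genes), and 15 rose and 9 fell with LPS in WT (median 0.79, beside 40.6% and 43.6%). Irf4 fell with LPA (-1.64, adjusted p = 2.88e-05) and LPS (-3.64) in WT, and Klf2, a factor of quiescent myeloid cells, fell with both (-0.81 and -1.25). Ikzf1, which encodes Ikaros, and Trib1, a pseudokinase that lowers C/EBPα protein, rose with LPA (0.28 and 0.53) and with LPS (2.34 and 2.15). Their KO changes with LPA did not pass the test (adjusted p = 0.306 for Ikzf1 and 0.415 for Trib1).

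Lists of genes known as targets of these factors were counted in the same way, beside the same shares of all genes: 23.5% up and 21.1% down with LPA in WT, 1.56% and 1.06% in KO, 40.6% and 43.6% with LPS in WT, and 39.3% and 43.0% with LPS in KO. Of 15 C/EBP target genes of activated macrophages, 10 rose and 1 fell with LPA in WT (median 0.76), 1 fell and none rose in KO (median -0.29), and 15 of 15 rose with LPS in each genotype. The list was made of genes of activated macrophages, so a rise with LPS was built into its choice. Whether C/EBP factors or others moved these genes was not tested. Tnf (1.93) and Cxcl2 (2.19) were among those that rose with LPA in WT, and the LPA change of 7 of the 15 was lower in KO, as was that of 15.8% of all genes. Of 20 PU.1 target genes, 6 rose, near the share of all genes, and 1 fell with LPA in WT (median 0.10) and 12 rose and 5 fell with LPS. Cybb, which encodes the catalytic subunit of the phagocyte oxidase, rose by 0.44 with LPA in WT and with LPS in both genotypes (1.45 in KO), and Fcgr3, an Fc receptor, fell with both in WT (-0.87 and -0.65). Of 9 MEF2 target genes 2 rose and 2 fell with LPA in WT (median 0.07), and of 19 MiT/TFE target genes 3 rose and 5 fell (median -0.12), both near the shares of all genes. With LPS 14 of those 19 fell and 4 rose in each genotype. The lists overlap in part, for Msr1 stands in the PU.1 and C/EBP lists and Hdac9 in both MEF2 lists.

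Genes whose level followed each member most closely were taken from the 2 with the highest Pearson correlation of log2 CPM over the 24 libraries, which share the LPS contrast. They were Stx11 and Tnfaip3 for Spi1 (r of 0.996 each), Usf2 and Zfp704 for Cebpa (0.996 each), 2510039O18Rik and Rab20 for Cebpb (0.968 and 0.965), and Nfkbib and Rhbdf2 for Cebpd (0.996 and 0.994). For Maf they were Marcks and Bmt2 (0.989 and 0.988), for Mef2a Zbed6 (0.952), and for Mef2c St8sia4 and Ank (0.991 each). Tfec went with Pik3r6 and Susd6 (0.995 each) and Sox4 with E2f1 and Etfdh (0.990 and 0.988). Mef2a and Cebpb, which together with Maf had the smallest LPS changes in WT, had the lowest of these values.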

How the data were processed

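RNA from 24 macrophage cultures was sequenced as stranded mRNA libraries (paired 51-base reads), per the labels' protocols. Reads were aligned with STAR 2.5.2a to mm10, per the submitters' processing notes. Which program counted reads, with which strand setting and annotation: not given in the sources used here. The authors deposited raw gene counts for 11590 genes, 9 of them without a symbol, with a minimum total of 170, so genes at very low counts were not analysed here. All columns matched a sample. Replicate pairs (36) all differed beyond counting noise, with chi-square over its degrees of freedom at 4.09 or more.

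Counts were fitted with edgeR 4.0.16 (R 4.3.3; TMM factors of 0.739 to 1.18, filterByExpr, which removed no gene, robust quasi-likelihood F test) in 1 model of 6 group means with 18 residual degrees of freedom and a common biological variation of 9.91%. There were 11 comparisons, each adjusted by Benjamini-Hochberg over all genes and called below 0.05. SE is the log2 change over the square root of F. RPKM used the deposited gene length. On simulated counts for WT LPA, with 100 genes changed by each size among 11590, 68% of changes of log2 0.5 and 97% of changes of log2 1 were recovered. There were 9 false calls. Far fewer genes change there than the 5165 called in the data, so these rates do not give the power of the real comparison. Alternatives were DESeq2 1.42.0, median-ratio factors, library totals, no filter, a filter of 50 counts in 4 libraries, only the compared groups, thinned counts, the replicate number as a block and leaving out each library. Same-numbered libraries of KO deviated together (correlations of 0.11 to 0.77 in 12 of 12 pairs), as did WT Cont and WT LPA (0.21 to 0.63), but not every pair with WT LPS, so numbers pair those libraries by this measure; the labels do not say what a number marks. WT and KO numbers did not (correlations of -0.58 to 0.18, 1 of 12 above 0.1). Within genotypes and for the differences in change, the block nested the number in genotype. For KO against WT it matched equal numbers across genotypes, in the compared groups alone, so that block rests on a pairing not seen here.

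The 9 genes and the lists were chosen with earlier results of these data known, so their direction is no independent evidence. All 9 genes are named, with up to 3 genes per list and treatment by smallest adjusted p in WT. Gene positions and promoters come from RefSeq on GRCm38.p6, the assembly of mm10. Some genes and 1 list that these rules name are not reported here.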

Additional observations from a re-analysis of the deposited data

Results flagged for a closer look

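In 5 of 54 groups of 4 libraries, 1 library lay far from the other 3 (gap to its neighbour over the group's range above the 95% critical value of Dixon's test, which chance exceeds in about 1 of 20 groups). WT LPA replicate 3 was such a library for Spi1 (292 CPM), Cebpd (8.65 CPM) and Mef2c (136 CPM), in each case on the side of the untreated cells. Mef2a in KO LPS replicate 4 was low at 193 CPM, and Sox4 in WT Cont replicate 3 was low at 3.76 CPM. Without WT LPA replicate 3 the same number of members, 7, was called with LPA in WT, and the number of genes called was 6083 in place of 5165. That was the largest number of the 8 fits without 1 library, and the smallest was 3792, without WT LPA replicate 2. Members called in those fits numbered 6 to 7.

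The LPA change differed between KO and WT for 7 members. The difference (KO minus WT, log2) was -0.51 for Spi1, 0.93 for Cebpa, -1.02 for Cebpd, 0.33 for Mef2a, 0.43 for Mef2c, -0.66 for Tfec and 1.60 for Sox4. Without WT LPA replicate 3 these were -0.61, 1.06, -1.23, 0.43, 0.60, -0.71 and 1.68, all called. For the genes where that library lay nearest the untreated cells, larger values follow from leaving it out. Genes called for this difference numbered 3301 with all libraries, 4632 without that library and 2259 without WT LPA replicate 2. With all libraries thinned to the depth of the smallest, 7 members were called as well. With the compared groups alone 6 were called, Mef2c being lost (adjusted p = 0.0632), and without 1 library 5 to 7. Lane number cannot be told apart from genotype.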

How the results depend on the processing

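Of 1726 values of the 9 genes under alternatives, 1645 kept their direction and side of the threshold, 51 lost a call, 5 gained one and 25 changed sign. Of the sign changes, 2 touched a called value, both for Mef2a with library totals alone: -0.11 with LPS in WT, and -0.26 for LPS minus LPA in KO. That setting also gave 0.0183 for the Cebpd difference in LPS change and 0.00081 for Spi1 between genotypes with LPS, and thinning gave -0.0861 for Sox4 between untreated genotypes. The cause was not tested. Leaving out 1 library moved uncalled values across 0. For the difference in LPS change between genotypes the ranges were -0.17 to 0.0484 for Cebpb, -0.18 to 0.0817 for Cebpd, -0.0150 to 0.11 for Mef2c and -0.0214 to 0.0580 for Spi1. For KO minus WT they were -0.0232 to 0.11 for Mef2a with LPS, and in untreated cells -0.0302 to 0.0861 for Mef2c, -0.0755 to 0.14 for Sox4 and -0.0238 to 0.0862 for Tfec.

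Members called with LPA in KO numbered 2, 4 with the replicate block, and 0 to 2 without 1 library. Genes called there were 304, 461 by DESeq2, 554 with the replicate block and 168 to 310 without 1 library. KO against WT with LPS gave 330 genes, 581 by DESeq2, 193 with thinned counts, 131 with the compared groups alone, 0 with the replicate block and 65 to 577 without 1 library. That block matched WT and KO libraries by number, a pairing that their correlations did not show. The difference in LPS change gave 0 genes, 17 by DESeq2 and 0 to 1 without 1 library. Between genotypes with LPA the same kind of block took 2 members past the threshold, Cebpb (-0.37, adjusted p = 0.121) and Maf (-0.14, adjusted p = 0.0993). Within genotypes, the block nested in genotype changed no call other than those of Cebpa and Mef2a in KO with LPA. Depth limits Sox4 with LPS, at 0 to 3 counts a library.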
